A study of Mus musculus with 360 samples.

Results

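The 43 genes named as subunits of the mouse proteasome and of its activators were followed through a short heat shock, cell by cell. They were all rows of the expression table whose symbol was Psma, Psmb, Psmc, Psmd or Psme and a number, 43 of 24781 rows. Of these, 3 (Psmd5, Psmd9 and Psmd10) encode assembly chaperones and are counted with the subunit genes throughout. The cells were C1498, labelled as a mouse acute myeloid leukemia line. They were brought to 45 °C for 10 min, or to 37 °C as the control, and single cells seen under a microscope were picked 1 h before heating or 1, 5, 10 or 15 h after its end. Each of the 360 samples was 1 cell. The 37 °C arm held 11, 11, 6, 6 and 11 cells in order of time and the 45 °C arm held 6, 13, 52 and 21 at -1, 1, 10 and 15 h, with the remaining cells of the arm at 5 h. Thus both groups at -1 h, together with the other 37 °C groups, were unheated (51 cells), and 309 cells had been heated. No label named a culture, so each group was treated as 1 sample, and all intervals below cover counting error only.

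The proteasome is the large protease that breaks down proteins marked with ubiquitin. Its 20S core is a barrel of alpha rings, which gate the entrance, and beta rings, which hold the proteolytic sites. The 19S cap has a base, whose ATPases unfold substrates, and a lid, which removes ubiquitin. In immune cells 3 inducible beta subunits can replace the standard proteolytic ones and form the immunoproteasome. Heat unfolds proteins and adds to the load of substrates. Cells are known to answer with chaperones under the factor Hsf1, while the factor Nrf1 (gene Nfe2l1) is the known activator of subunit genes when proteasome activity falls short.

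Levels are given as CPM, the share of the UMIs (molecules counted) of a group scaled to 1000000. A cell held between 1060.5 and 122196 UMIs (median 29052), and a group between 173274 and 6809101. No 2 of the 360 cells held the same values. The leukocyte genes Ptprc, Coro1a and Laptm5 were read in every group. Of the myeloid markers, Lyz2, Elane, Spi1, Csf1r, Kit and S100a8 were at 0 in all cells and Mpo had 14 UMIs, while Cd3e and Cd3g, subunits of the T cell receptor complex, had 210.7 and 192.1 CPM over all cells. The other T cell markers were low or absent, with Cd3d at 5.64 CPM, Cd4 at 0 and Cd8a at 1 UMI. The table therefore does not show the defining markers of the myeloid lineage in the labelled line. A further fact of the libraries touches every result after heating. The ribosomal RNA precursor Rn45s took at most 21.4% of the UMIs of any unheated cell, but more than that in 27 heated cells (0 at 1 h), of which the groups from 5 to 15 h held 15, 8 and 4. Values without those cells are given beside the sums.

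Summed over the 43 genes, proteasome mRNA was slightly lower after heating and did not rise with the chaperones. In the 37 °C arm, from -1 to 15 h, the sum was 8770.03, 8886, 8885, 9649 and 9236 CPM. In the 45 °C arm it was 8748 CPM before heating, then 8566, 8439, 8579.8 and 8008 CPM in order of time. The 4 heated groups thus lay below the 6 unheated groups without overlap. With Rn45s taken out of every total the order held by a narrow margin, at 9874, 9763, 9595 and 9479 CPM after heating and 9895 to 10936 CPM without it. As a check of heating, 10 heat shock chaperone genes summed to between 10753 and 13705 CPM in the unheated groups and to 12505, 26677, 20982 and 18680 CPM in the 4 groups after 45 °C, in order of time.

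**Figure D1:**
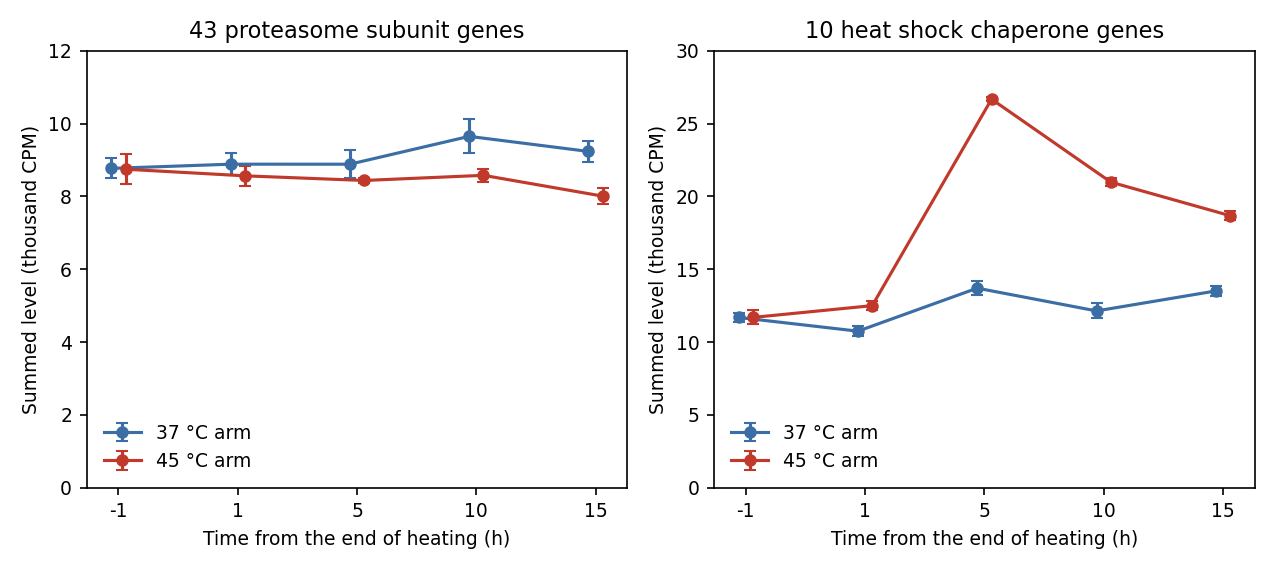
Summed level of the 43 proteasome subunit genes (left) and of 10 heat shock chaperone genes (right) in CPM divided by 1000 against time from the end of heating, with 1 point per group and bars for the 95% exact Poisson interval. The proteasome sum of the 45 °C arm stayed between 8008 and 8748 CPM, while the chaperone sum rose to 26677 CPM at 5 h.

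With the 37 °C cells picked at that time as denominator, the log2 ratio of the proteasome sum was -0.0035 (95% interval -0.09 to 0.08) before heating. It was -0.05 (-0.12 to 0.01) at 1 h and -0.07 (-0.14 to -0.01) at 5 h. The signs at 1 and 5 h rested on the scaling: relative to the median gene, which lay at -0.14 and -0.23, the ratios were 0.08 and 0.15. At 10 h the ratio was -0.17 (-0.25 to -0.09), but -0.068 against all unheated groups pooled; the 37 °C group at 10 h was the highest of all. At 15 h it was -0.21 (-0.26 to -0.15), or 0.867 times the control, and it stayed negative under each alternative tried. Without the 27 cells rich in Rn45s the ratios from 5 to 15 h were -0.05, -0.14 and -0.14, and the sums 8565, 8774 and 8405 CPM, of which the 10 h value then lay inside the unheated range. The part of Rn45s in the lower sums was not tested beyond these values.

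Gene by gene, few subunit genes moved far. A gene was measured in a comparison if its 2 groups had at least 20 UMIs together and 1 of them at least 10 CPM, and was called if they differed at least 1.5-fold. At 1 h 3 of 40 measured members were called (0 higher, 3 lower), against 25.4% of all measured genes (5.71% higher, 19.6% lower). The 5 h comparison called 6 of 41 (1 higher, 5 lower) against 42.9% (12.5% higher, 30.5% lower). At 10 h 9 of 41 (2 higher, 7 lower) stood against 41.1% (21.9% higher, 19.2% lower). The last time called 7 of 40 (2 higher, 5 lower) against 24.3% (12.3% higher, 12% lower). Before heating, when both groups were untreated, 3 of 39 were called (2 higher, 1 lower) against 24.6% (11.8% higher, 12.8% lower). The members' share was below the background in all 5 comparisons, to which the members were not matched in abundance.

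With all 6 unheated groups pooled as the denominator, fewer members were called. Psmd12 was the 1 member called at 1 h and Psma2 the 1 at 5 h, both lower, against 26.1% and 29.1% of all genes. At 10 h Psmb10, Psmd11 and Psmd13 were lower and Psmd5 higher, 4 members against 31.9%. At 15 h Psma1, Psmb9, Psmc4, Psmd3, Psmd13 and Psme3 were lower, 6 of 41 against 23.9%. Levels can also be set against the range of the 6 unheated groups. Below that range lay 8, 6, 8 and 10 of 41 members in the heated groups from 1 to 15 h, where all genes gave 18.3%, 18.8%, 15.4% and 12.5%. Above it lay 2, 2, 3 and 2 members, where all genes gave 8.3%, 7.31%, 19.5% and 15%.

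The median member and the median gene moved differently with time. The median log2 ratio of the measured members was -0.09 at 1 h, where that of all measured genes was -0.14, and -0.11 at 5 h against -0.23. At 10 h it was -0.19 against 0.00, and at 15 h -0.17 against -0.02. At 15 h 31 of 40 measured members had a lower value in the heated group. The share of all genes that were lower is not given here, and their median, -0.02, lay near 0. The members share the control group and the total, so their directions are not independent. Over the 4 times after heating, 26 of the 43 genes were called at no time, 11 at 1 time, 4 at 2 times and 2 at 3 times. Of the 17 genes called at any time, 3 were called in opposite directions at different times. The same counts were not made over all genes, so whether these are unusual was not tested. Psma8 and Psmb11, which were never measured, are among the 26.

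**Figure D2:**
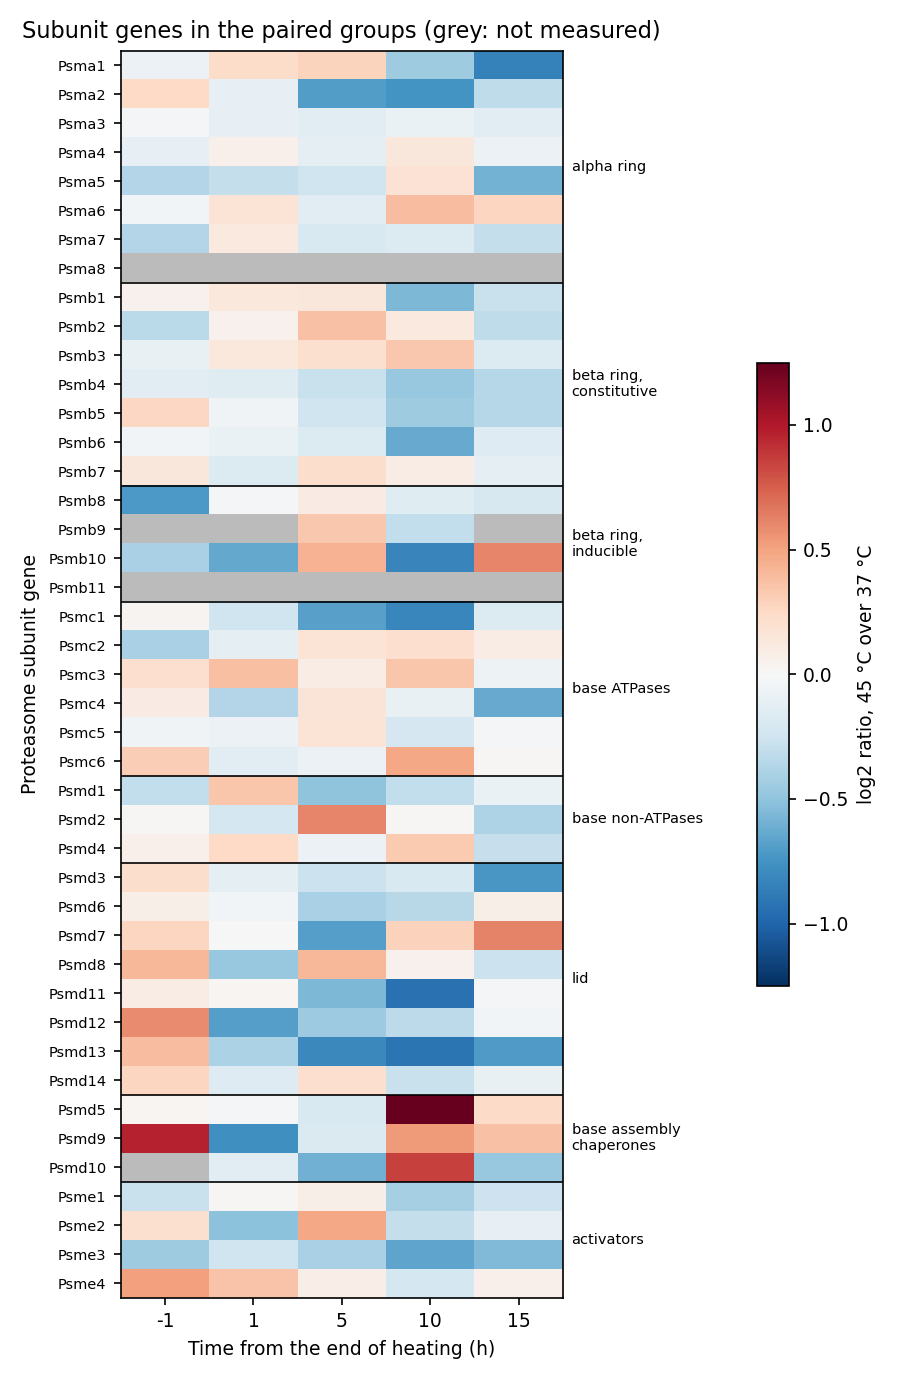
Log2 ratio of the 45 °C over the 37 °C group (colour) for each of the 43 genes (rows, ordered by the part of the proteasome they belong to) at each time (columns), with genes that were not measured in grey. Most cells are pale, and the darkest red is Psmd5 at 10 h (1.24).

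The alpha ring genes Psma1 to Psma7 encode the outer rings of the core, and 7 of 8 were measured. Psma8, the testis form, had 0 UMIs in every group. Psma7 had the most UMIs of the ring, and was between 299 and 433 CPM in the unheated groups and between 319 and 400 CPM in the heated ones. The ring's sum had a log2 ratio near 0 at 1 h (-0.00083), and from 5 to 15 h ratios of -0.18 (-0.31 to -0.06), -0.10 (-0.26 to 0.06) and -0.29 (-0.41 to -0.16).

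Psma2, a subunit of the alpha ring, was called lower at 5 and 10 h. Its unheated groups had 286, 318, 319.97, 375 and 301 CPM in the 37 °C arm and 339 CPM before heating at 45 °C. After heating it had 296, 198.3, 225 and 242 CPM, in order of time. The last 3 groups lay below every unheated group. Its log2 ratio was -0.70 (-1.02 to -0.34) at 5 h and -0.75 (-1.15 to -0.32) at 10 h; without cell 4 of the 37 °C group at 5 h the 5 h value was -0.52.

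Psma1 had 162.6 CPM at 15 h after heating, against 292 in the control and 172.3 to 292 in the unheated groups. Its log2 ratio was -0.84 (-1.23 to -0.47), the lowest of any member at that time, and no single cell ended the call. At 5 h the same gene had 210.7 CPM against 172.3 in the control, which was the lowest unheated group, and a log2 ratio of -0.22 (-0.37 to -0.06) against all unheated groups pooled. Psma5 was lower at 15 h, 266 against 399.9 CPM (-0.59, -0.90 to -0.28), a value just past the threshold that 15 single cells ended when left out.

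The constitutive beta ring holds the proteolytic subunits Psmb5, Psmb6 and Psmb7, with chymotrypsin-like, caspase-like and trypsin-like activity. As a ring it gave a ratio near 0 at 1 h (-0.01) and 5 h (0.03), then -0.31 (-0.44 to -0.18) at 10 h and -0.26 (-0.36 to -0.15) at 15 h. All 7 genes of the ring had a lower value at 15 h, none of them by 1.5-fold. Psmb1, a structural subunit with the most UMIs of the ring, had 992.6 CPM in the 37 °C group at 10 h, 632 to 804 in the other unheated groups and 665 to 713 in the heated groups. Its log2 ratio at 10 h, -0.56 (-0.80 to -0.31), was set against the highest of the unheated groups.

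Psmb6 was the 1 member of 41 whose 4 heated groups all lay below its 6 unheated groups, a pattern shown by 1.66% of all measured genes; 0 members showed the reverse, against 0.613%. The unheated groups had 248, 249.5, 256, 258, 271 and 341 CPM, and the heated groups 234, 242, 221.5 and 229.7 CPM from 1 to 15 h. The step between the nearest groups, 242 and 248 CPM, was far smaller than their counting intervals (231 to 254 and 201.1 to 302 CPM). Its log2 ratio passed the threshold at 10 h only, at -0.63 (-1.04 to -0.18), and leaving out cell 1 or cell 6 of the control ended that call, with a value of -0.48 at the nearest to 0. Psmb7 stayed between 402 and 471 CPM over the 10 groups, a 1.17-fold range. Psmb5 had 349 to 400 CPM in the heated groups and 353 to 542.5 CPM in the unheated groups.

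The inducible subunits Psmb8, Psmb9 and Psmb10 replace Psmb5, Psmb6 and Psmb7 in the immunoproteasome. All 3 were read before and after heating, at lower counts than their partners. Psmb8 was 12.5% to 22.3% of the UMIs of Psmb8 and Psmb5 together in the unheated groups, and 18.3%, 16.3%, 24.1% and 16.3% in the heated groups in order of time. At 10 h the exact Clopper-Pearson intervals of the heated (20.4% to 28.01%) and control share (13.5% to 28.7%) overlapped. Psmb9 was 1.96% to 7.55% of Psmb9 and Psmb6 before and 2.53% to 8.44% after heating. Psmb10 was 8.53% to 16.9% of Psmb10 and Psmb7 in unheated and 7.13% to 13.5% in heated groups. The pairs were compared by UMIs with no correction for how well each mRNA is captured.

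Psmb10 was called at 3 times, lower at 1 and 10 h and higher at 15 h. It had 59.8 CPM at 1 h against 93.5 in the control (-0.64, -1.43 to 0.12), 33.7 against 57.7 at 10 h (-0.83, -1.83 to 0.41) and 62.6 against 40.4 at 15 h (0.61, -0.20 to 1.52). Each interval held 0, and without cell 3 of the 37 °C group at 10 h the 10 h value was -0.34. Against all unheated groups pooled the 15 h value was -0.015. The calls at 1 and 15 h were ended by leaving out any of 6 and 11 cells. Psmb8 was lower in 1 pair, at -1 h, where neither group had been heated (59.9 against 101.3 CPM, -0.72, -1.81 to 0.18). Psmb9 could be compared at 5 and 10 h and was called at neither. Psmb11, the thymus form, had 6 UMIs in all. In the annotation (GENCODE M21, GRCm38), Psmb8 (chr17:34197721-34201454) and Psmb9 (chr17:34181987-34187764) lie beside Tap1 and Tap2, the peptide transporter genes of the major histocompatibility complex.

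Base ATPases showed no common direction. Psmc1 to Psmc6 encode the ring that unfolds substrates, and their summed log2 ratios were -0.04, -0.01, 0.02 and -0.11 from 1 to 15 h, each with an interval that held 0. Psmc3, with the most UMIs of the ring, had 322 CPM at 1 h against 248 in the control (0.38, -0.01 to 0.77), the highest ratio of that time. Psmc1 was lower at 5 h, 142.6 against 226 CPM (-0.67, -1.05 to -0.24), and at 10 h, 128.6 against 225 CPM (-0.82, -1.34 to -0.25). Leaving out cell 4 or cell 5 of the 37 °C group at 5 h ended the first of these calls (-0.52 at the nearest to 0), and no single cell ended the second. At 15 h Psmc1 was back at 177.5 CPM, inside its unheated range of 167.4 to 226 CPM.

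Psmc2 was above its unheated range at 5, 10 and 15 h but not at 1 h, and within 1.5-fold of the control at each time. It had 128.7 CPM at 1 h, inside that range. From 5 to 15 h after heating it had 191.1, 189.8 and 168.5 CPM, above all 6 unheated groups (119.8 to 168.2 CPM). The 15 h value topped the highest unheated group by less than its counting interval of 138.9 to 202.6 CPM. Psmc4 had 107.4 CPM at 15 h against 166.3 in the control (-0.63, -1.12 to -0.14), a call that 5 single cells ended when left out, and turned to 0.20 when all cells were thinned to 5000 UMIs. Psmc6 had 173.5 against 121.2 CPM at 10 h (0.49, -0.14 to 1.247).

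Among the base subunits without ATPase activity, which carry ubiquitin receptors and scaffolds, Psmd2 was the 1 member of all 43 called higher at 5 h. It had 228 CPM against 147.7 in the control (0.61, 0.15 to 1.15), and leaving out cell 3, 4 or 6 of that control ended the call (0.54 at the nearest to 0). That control was the lowest of its 6 unheated groups, which reached 243 CPM, and against all unheated groups pooled Psmd2 was not called. Psmd1, a scaffold with the most UMIs of the 3, had 250.8 against 353 CPM at 5 h (-0.50, -0.80 to -0.16), where the control was the highest of the unheated groups.

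Psmd13, a structural lid subunit, was called lower at 3 times after heating, of which the first rested on a high control. It had 92.5, 136.5, 168.2, 115.4 and 116.8 CPM in the 37 °C arm, 119.8 CPM before heating at 45 °C, and 103.4, 97.2, 62.3 and 71.6 CPM from 1 to 15 h after it. The groups at 10 and 15 h lay below all unheated groups. It was called lower at 5, 10 and 15 h, with log2 ratios of -0.81 (-1.246 to -0.30), -0.91 (-1.64 to -0.08) and -0.71 (-1.30 to -0.11). Without cell 6 of the 37 °C group at 5 h the first was -0.52, and with cells thinned to 5000 UMIs the 10 h value was 0.40. Over single cells at 10 h the gene ranged from 0 to 260.1 CPM with a median of 53.04, against 66.6 to 212.1 CPM with a median of 107.3 in the 6 control cells.

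Other lid genes were called at 1 or 2 times. Psmd11 had 67.4 CPM at 10 h, below all its unheated groups (94.7 to 139.5 CPM), with a log2 ratio of -0.94 (-1.63 to -0.15), the lowest at that time. Psmd12 was lower at 1 h, 87.3 against 141.5 CPM (-0.69, -1.33 to -0.08), and below all its unheated groups (110.1 to 164.7 CPM). Before heating, its 2 groups were also called apart, the other way, with the 45 °C group the highest of all at 164.7 CPM. Psmd3 was lower at 15 h, 119.3 against 197.7 CPM (-0.73, -1.18 to -0.28), and without cell 2 of that control the value was -0.58. Psmd7 was lower at 5 h, 161.3 against 258 CPM (-0.69, -1.05 to -0.29), where the control was the highest unheated group and the value against all unheated groups pooled was -0.14, and higher at 15 h, 257 against 166.3 CPM (0.62, 0.22 to 1.04), the second of which was 0.53 against the pooled groups and ended when any of 7 single cells was left out. Psmd8 had 193.1 against 268 CPM at 1 h (-0.47), which is within the threshold. As a whole the lid was at 0.28 (0.07 to 0.48) before heating, with all 8 genes higher in the 45 °C group, and at -0.23, -0.26, -0.20 and -0.09 at the 4 later times.

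The highest ratio of any member after heating was that of Psmd5, a chaperone that helps to assemble the base and is not part of the finished proteasome. It had 53.3 to 74.9 CPM in the 6 unheated groups, 55.2 CPM at 1 h and 48.6 CPM at 5 h after heating. At 10 h it had 142.9 CPM against 57.7 in the control, and at 15 h 77.6 against 65.2 CPM. Its log2 ratio at 10 h was 1.24 (0.39 to 2.40) from 140 and 10 UMIs. The control was small, but the heated level lay above all 6 unheated groups, no single cell ended the call (0.91 to 1.59), and it was also called against all unheated groups pooled. The gene had a UMI in 41 of 52 heated cells at 10 h (78.8%), with a highest cell of 350 CPM. In the unheated groups it had a UMI in 66.7% to 100% of the cells. Detection was thus inside the unheated range, and such counts depend on depth, so they do not show how the rise was spread over cells. At 15 h the level exceeded the highest unheated group by less than its counting interval of 57.9 to 101.7 CPM.

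The other base assembly chaperones, Psmd9 and Psmd10, had low counts. Psmd9 had 57.5 CPM at 1 h against 98.6 in the control (-0.77, -1.56 to -0.02), but its 2 groups before heating differed as much the other way, 59.9 against 30.8 CPM (0.97, -0.29 to 2.18), and against all unheated groups pooled the 1 h value was 0.02. Psmd10 gave 14.8 against 20.5 CPM at 5 h (-0.60, -1.74 to 1.19) and 25.5 against 11.5 CPM at 10 h (0.85, -0.86 to 4.27), the controls holding 5 and 2 UMIs. Leaving out cell 3 of the 37 °C group at 5 h turned the 5 h value to 1.10, and any of 3 cells ended the call at 10 h, where the mean of single cells gave -0.049. The 3 chaperones together had a log2 ratio of 0.93 (0.33 to 1.66) at 10 h, of which Psmd5 gave 140 of 242 UMIs.

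**Figure D3:**
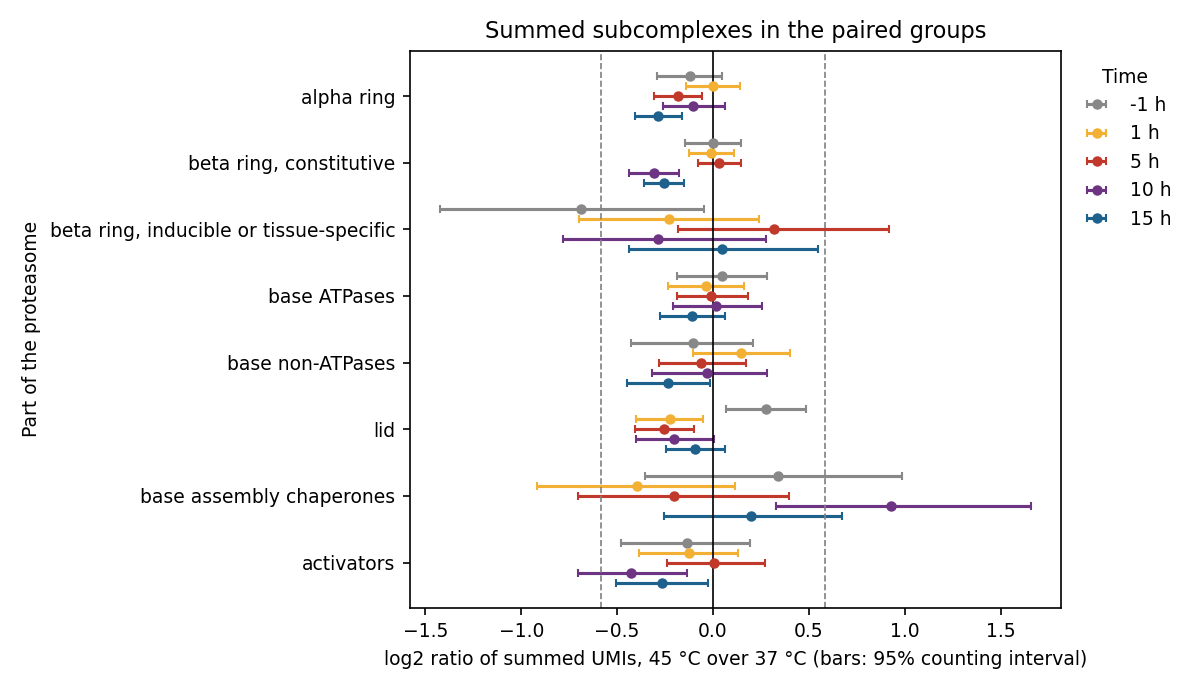
Log2 ratio of the summed UMIs of each part of the proteasome, 45 °C over 37 °C, with its 95% counting interval and 1 colour per time. Solid and dashed lines mark 0 and the 1.5-fold threshold. After heating the base assembly chaperones at 10 h (0.93) are the 1 sum past the threshold.

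The activators cap the core in place of the 19S base. Psme1 and Psme2 form the interferon-inducible cap and are neighbours on chromosome 14. Psme1 had 189.6 to 265 CPM in unheated and 201.05 to 260 CPM in heated groups, and was not called at any time. Psme2 had 94.9 to 119.4 CPM after heating against 65.6 to 151.6 CPM without it. Its values are uncertain, since 56.3% of its UMIs stood in fractional values and a near-identical copy, Psme2b, had similar levels (83.9 to 93.9 CPM after heating). Psme3, the nuclear activator, had 158.2 CPM at 10 h against 248 (-0.66, -1.15 to -0.13) and 113.4 at 15 h against 166.3 (-0.55, -1.03 to -0.07). The control at 10 h was its highest group, and without cell 1 of it the value was -0.49. Psme4 had 60.7 to 99.8 CPM in unheated and 68.6 to 84.9 CPM in heated groups.

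Core and cap kept a similar balance in all groups. The 20S core took 60.98% to 64.7% of the UMIs of core, base and lid in the unheated groups, and 63.1%, 62.4%, 62.5% and 60.7% after heating. The core's log2 ratio was -0.22 (-0.32 to -0.12) at 10 h and -0.26 (-0.34 to -0.18) at 15 h, and that of base and lid was -0.09 (-0.22 to 0.05) and -0.13 (-0.23 to -0.03).

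Over all 10 groups most members varied less than the median gene of at least 50 CPM. Of the 2064 genes with at least 50 CPM in each group, 36 were members. Their highest group exceeded their lowest by 1.59-fold at the median, and the median of all 2064 genes was 1.80-fold. Of the 36, 26 lay under that median of all genes. The widest range was 2.70-fold, in Psmd13. Psmd5 was under 50 CPM at 5 h after heating and so was not among them. Members and other genes were not matched in abundance here, and counting error widens the range of genes with few UMIs.

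In single cells, the lower sums after heating came with a tail of cells low in proteasome mRNA. The sum ranged from 7060.5 to 11985 CPM in the 51 unheated cells. It lay under that range in 1 of 13 heated cells at 1 h and in 30 cells at 5 h (13.5%, exact interval 9.26% to 18.6%). The later groups held 12 of 52 (23.1%, 12.5% to 36.8%) and 6 of 21 such cells (28.6%, 11.3% to 52.2%). It lay above the range in 0 of 309 heated cells. At 5, 10 and 15 h the cells under the range had a lower median depth than their groups, at 19833, 5831 and 24534 UMIs. Over all cells of these groups the median was 29075, 18741 and 31037 UMIs. The 1 cell under the range at 1 h had 39638 UMIs, above its group's median of 31727. Counting error is wider in shallow cells, and the part of depth in the tail was not tested. Cell medians were also lower in the 45 °C groups at 5, 10 and 15 h, at 8493, 8612 and 8481 CPM. Those of the 37 °C groups were 8711, 9459.5 and 9459.5 CPM.

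Rn45s was high in many of these cells. Of the 49 heated cells under the unheated range, 25 were among the 27 cells with more Rn45s than any unheated cell, and 24 were not. The 4 lowest cells had 360 to 650.5 CPM from 1 to 3.75 UMIs, with Rn45s at 65.7% to 88.3% of their UMIs. With Rn45s taken out of each cell's total, 29 heated cells still lay under the unheated range. Chaperone mRNA was low as well in the lowest cell (3237 CPM), where Rn45s at 65.7% lowers the CPM of every other gene. It was not low in all cells under the range. Cell 42 at 10 h and cell 12 at 15 h, with Rn45s at 12.4% and 16.1%, had 18441 and 23670 CPM.

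**Figure D4:**
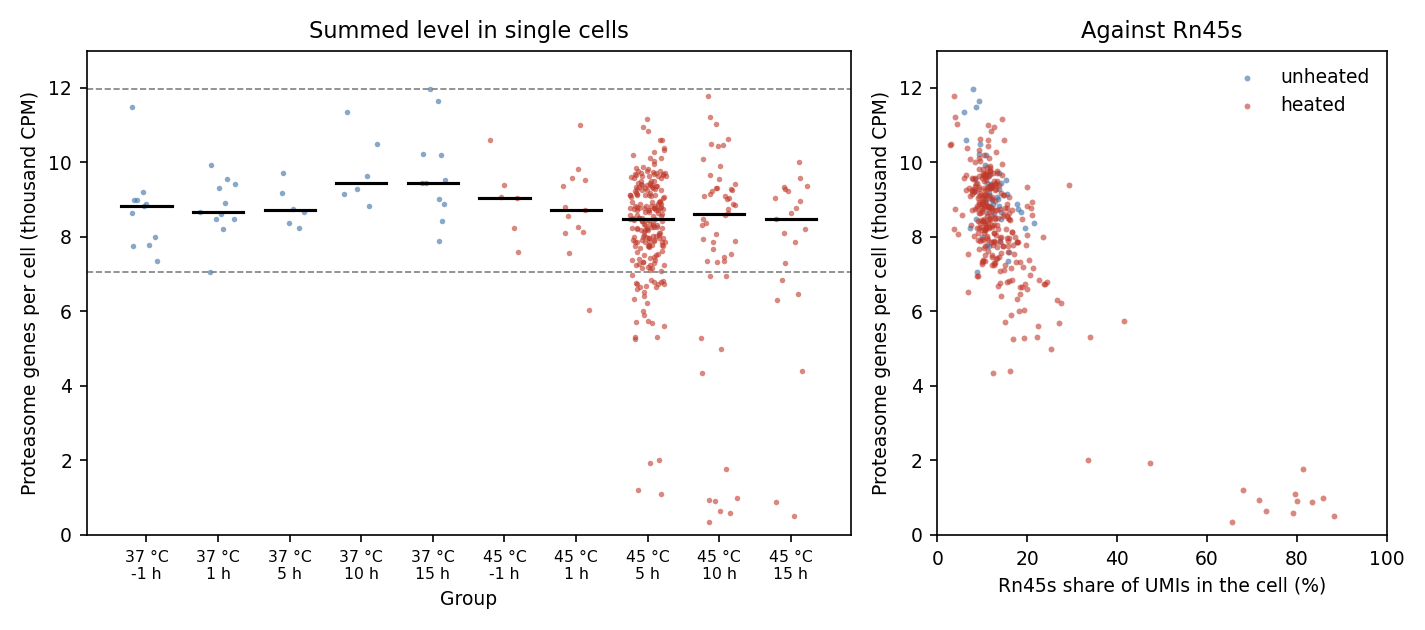
Left, summed level of the 43 genes in each cell (points, CPM divided by 1000) by group, with the group median (bar) and the lowest and highest unheated cell (dashed lines). Right, the same levels against the share of UMIs from Rn45s, where cells above 60% Rn45s lie under 2000 CPM.

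At a depth of 5000 UMIs, spread between cells was close to counting error for single members. All cells were thinned to 5000 UMIs, leaving out 1 cell at 5 h and 5 at 10 h after heating, and the Fano factor (variance over mean, 1 for pure counting error) was taken for genes with at least 0.5 UMI per cell. Among the heated cells at 5 h the median over 32 members was 1.10, with a lowest of 0.851 (Psmc5) and a highest of 1.44 (Psme1), and that of 1331 genes in the same range of means was 1.11. All members together averaged only 41.6 UMIs per thinned cell. At such counts a modest spread between cells hardly raises the Fano factor of a single member, so values near 1 do not measure it well. The sum of all members varied more than counting alone, with a CV of 23.4% where counting error gives 15.5%. That CV was 28.5% at 10 h and 37.8% at 15 h, and in the unheated groups of 6 or 11 cells it was 12.5% to 22.9%. The cells rich in Rn45s were kept in these values, and their part in the wider spread was not tested.

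**Figure D5:**
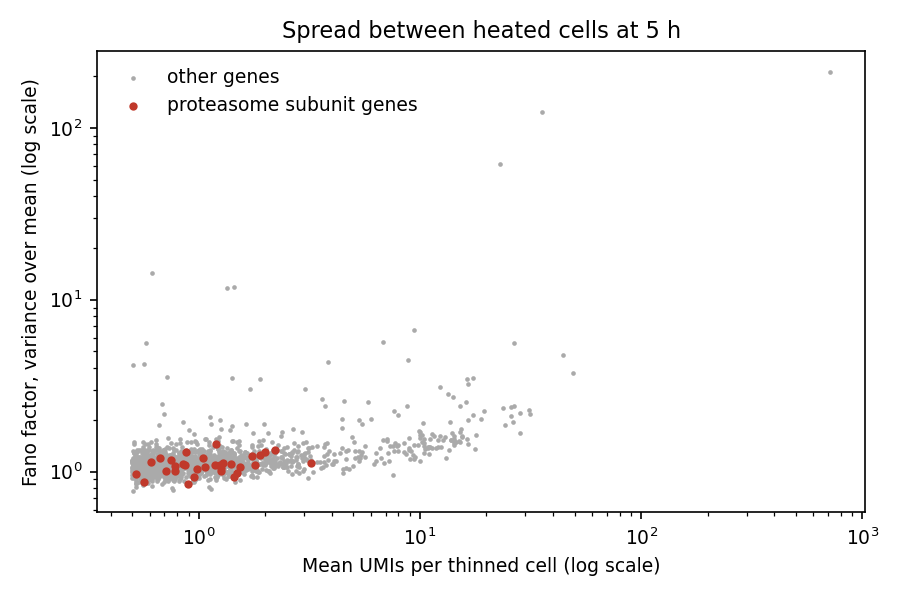
Fano factor against mean UMIs per thinned cell over the heated cells at 5 h, both on log scales, with proteasome subunit genes in red and other genes in grey. The members lie between 0.851 and 1.44, inside the band of genes of like abundance.

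Levels of core and cap were weakly related over cells, which share the scaling to a total and depth. The Spearman rho of 20S core and 19S base and lid was 0.37 over all heated cells at 5 h, and 0.25 with cells thinned to 5000 UMIs. Alpha and constitutive beta ring gave 0.50, and 0.27 thinned. All members against the 10 chaperone genes gave -0.02, and 0.08 thinned. At 10 h core and cap gave 0.57 over 52 cells but 0.08 over 47 thinned cells, from which the shallowest were left out.

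Other genes of the pathway were read from lists chosen with earlier results of these data known. Of the 6 ubiquitin and activation genes, 5 had a higher value at 5 h and 2 were called higher, against 12.5% of all genes called higher. Rps27a, which encodes ubiquitin fused to a ribosomal protein, had 3743 against 3749 CPM at 5 h (-0.003, -0.10 to 0.09). Of the 15 shuttle and segregase genes 4 were called higher and 1 lower at 5 h. Zfand2a, a heat-inducible partner of the proteasome, had 90.5 against 28.7 CPM (1.56, 0.60 to 2.98), while Nploc4 had 64.2 against 106.7 CPM (-0.76, -1.30 to -0.10; -0.37 against all unheated groups pooled, which ends the call). Vcp, the segregase with the most UMIs of that list, had 360 against 468 CPM (-0.38, -0.65 to -0.09).

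Of the 13 assembly and associated factors, all measured at 5 h, 2 were called higher and 3 lower, against 12.5% and 30.5% of all genes, so neither share stood far from that of all genes. Psmf1, an inhibitor of the core, had 36.1 against 12.3 CPM (1.33, -0.01 to 3.84, the control holding 3 UMIs; 0.70 against all unheated groups pooled), and Usp14, a ubiquitin protease bound to the cap, had 91.9 against 155.9 CPM (-0.78, -1.23 to -0.25; -0.38 pooled, which ends the call). Sem1, a small lid subunit outside the symbol rule, had 430.0 against 320 CPM (0.42, 0.10 to 0.77), but 0.021 against all unheated groups pooled. Pomp, the maturation factor of the core, was named after its values were seen. It had 129.1 against 201.01 CPM at 5 h (-0.65, -1.05 to -0.19), 135.7 against 271 at 10 h (-1.01, -1.49 to -0.49) and 146.2 against 225 at 15 h (-0.62, -1.04 to -0.20), and leaving out single cells ended the calls at 5 and 15 h (to -0.51 and -0.52) but not at 10 h.

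Of the genes that control subunit transcription, 10 were measured at 5 h, of which 8 had a lower value, 5 were called lower and 0 higher, against 30.5% of all genes called lower. At 10 h 3 of 8 were called higher and 1 lower, against 21.9% and 19.2% of all genes. The list's sum was then 445 CPM against 340.5 in the control. That control was the lowest unheated group, and 445 CPM lay inside the unheated range, which reached 489.8 CPM. At 5 h Ngly1, whose enzyme is needed to activate Nrf1, had 15.0 against 49.2 CPM (-1.77, -2.58 to -0.72). Mafk had 44.4 against 32.8 CPM at the same time (0.35, -0.56 to 1.66). Nfe2l1 itself, named after its values were seen, had 55.2 against 106.1 CPM at 1 h (-0.93, -1.73 to -0.19), 32.3 against 49.2 at 5 h (-0.66, -1.44 to 0.37) and 35.7 against 57.7 at 10 h (-0.74, -1.74 to 0.49). Its 5 h value was 1.13 in cells thinned to 5000 UMIs and -0.10 without cell 1 of the control. Sqstm1, an autophagy receptor also named after its values were seen, had 167.1 against 77.9 CPM at 5 h (1.06, 0.45 to 1.84) and 428 against 17.3 CPM at 10 h (4.41, 3.07 to 6.91, the control holding 3 UMIs), or 2.67 at 10 h against all unheated groups pooled. Of the 8 antigen processing genes, 7 were measured at 5 h, with 1 called higher and 2 lower, close to the 12.5% and 30.5% of all genes.

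Promoters were read to see which letters stand before these genes. RefSeq windows (GRCm38.p6) of 250 bases before to 50 after the start were found for 36 of the 43 members and for 27025 genes in all, and were searched on both strands. The heat shock element, 3 alternating units in which GAANNTTC is followed by NNGAA, was in 0 of 36 member windows and in 0.662% of all windows. It was in 3 of 7 chaperone windows, those of Hspd1, Hspe1 and Hsph1, of which the first 2 have overlapping windows. The antioxidant response element TGACNNNGC, at which Nrf1 and Nrf2 can bind, was in 6 of 36 (16.7%) and 13.99% of all. The ETS motif CCGGAAG was in 12 of 36 (33.3%) and 9.93%, the GC box GGGCGG in 22 (61.1%) and 38.2%, and CCAAT in 14 (38.9%) and 41.1%. The units GAANNTTC and TTCNNGAA were each in 2 of 36 (5.56%), and in 9.04% and 9.60% of all. A match describes letters in this window and not a bound site.

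These stretches, chosen after the matches were seen, show the motifs in named members and in Hspe1 as the contrast, 5′ to 3′ along the gene, with the match in capitals. Psmb5 (chr14:54618009-54618067, minus strand) and Psmb6 (chr11:70525323-70525356, plus) hold the antioxidant response element, and Psmb6 was the member below its unheated range in each heated group. Psmc1 (chr12:100110149-100110201, plus), Psmd11 (chr11:80428579-80428614, plus) and Psmd2 (chr16:20651601-20651651, plus) hold the ETS motif as its reverse complement. Psmd5 (chr2:34871029-34871084, minus) holds GC boxes, of which 1 is shown, and none of the heat shock units in its window, and this RefSeq start lies inside the longer gene span of GENCODE (chr2:34849734-34874968). Hspe1 (chr1:55088034-55088096, plus) holds 2 overlapping heat shock elements, 1 on each strand, which also overlap an ETS motif.
Psmb5: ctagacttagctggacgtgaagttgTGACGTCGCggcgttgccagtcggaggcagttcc
Psmb6: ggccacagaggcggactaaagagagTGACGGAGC
Psmc1: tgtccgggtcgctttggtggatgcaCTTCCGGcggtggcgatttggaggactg
Psmd11: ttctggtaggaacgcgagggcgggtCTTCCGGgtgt
Psmd2: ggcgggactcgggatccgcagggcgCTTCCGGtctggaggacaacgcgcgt
Psmd5: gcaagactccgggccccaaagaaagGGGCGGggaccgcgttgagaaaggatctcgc
Hspe1: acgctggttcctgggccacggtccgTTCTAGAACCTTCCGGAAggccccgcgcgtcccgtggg

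The 6 members with an antioxidant response element are set beside the other members by counts. From 1 to 15 h, 1, 1, 2 and 3 of the 6 had a higher value, against 9 of 28, 13 of 29, 10 of 29 and 5 of 28 measured members with a window that lacks it. At -1 h, with neither group heated, it was 5 of 6 against 12 of 27. Over the 10 groups, Usp5, which encodes a protease that takes apart free ubiquitin chains, followed the summed members most closely in log2 CPM among 2028 genes compared (Pearson r of 0.92), and Kif11, Dnajb11 and BC002163 were among the next (0.86, 0.85 and 0.84). These are descriptions over 10 groups whose member sum moved by 1.20-fold in all.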

How the data were processed

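The series held 360 single C1498 cells. Lysed cells were heated to break their RNA, which was reverse transcribed from an oligo-dT primer with a molecular barcode and amplified after template switching, per the labels' protocols. The deposited table holds estimated counts of molecules per gene and cell, with 25.9% of UMIs in values that are not whole numbers. The submitters' processing notes name STAR and mm10 with no version. The program that counted reads per gene is not given in the sources used here, nor its annotation. Spike-in RNA was not analysed here, and some genes that the naming rule picks are not reported here.

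The design was written for whole counts; since the values are estimated counts, UMIs were summed per gene and group, rounded to whole numbers and scaled to CPM. Log2 ratios had 0.5 UMI added to each sum and a 95% exact conditional binomial (Clopper-Pearson) interval, which covers counting error only. As each group is 1 sample, no p-value was computed. A group at 0 has a floor of 3 counts over the group. Ratios were tested on simulated data. Named were the proteolytic subunits and their inducible partners, the activators, the 4 highest and 4 lowest measured members per comparison as far as the text needs them, the member with most UMIs in each part, and from the other lists at 5 h the highest, the lowest and those with most UMIs. Members and lists were chosen with earlier results of these data known. Alternatives were another denominator, scaling, thinning, fold, filter and pseudocount, whole-number values and each cell left out. 3 were added after seeing the data: totals without Rn45s, cells rich in Rn45s left out, and Psme2 summed with Psme2b. Promoter sequences are from RefSeq (GRCm38.p6), and gene positions from GENCODE M21 (GRCm38, the assembly behind mm10). Python 3.11.15, NumPy 2.4.6, pandas 2.3.3, SciPy 1.17.1 and Matplotlib 3.10.9 were used.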

Additional observations from a re-analysis of the deposited data

Results flagged for a closer look

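The summed lid genes in cell 3 of the 37 °C group at 5 h had 807.5 CPM, the lowest of 6 cells, where the next had 1423 CPM. The gap made up 0.628 of the group's range. It was 1 of 66 such checks, and chance alone marks about 1 in 20 groups.

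Psmb10, Psmd7 and Psmd10 were called in opposite directions at 2 times, and the difference between the times was not tested. Psmb10 had a log2 ratio of -0.83 at 10 h and 0.61 at 15 h, the second of which was -0.015 against all unheated groups pooled. For Psmd7 the values were -0.69 at 5 h (-0.14 pooled) and 0.62 at 15 h. Psmd10 gave -0.60 at 5 h and 0.85 at 10 h, from 5 and 2 control UMIs, and the mean of single cells gave -0.049 at 10 h.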

How the results depend on the processing

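No paired analysis was possible because the values come from no test and the cell numbers in the labels only name cells. Leaving out each cell in turn gave ranges of the summed log2 ratio of -0.03 to 0.06 at -1 h, -0.07 to -0.01 at 1 h, -0.09 to -0.05 at 5 h, -0.20 to -0.14 at 10 h and -0.26 to -0.17 at 15 h, and of the number of members called of 1 to 4, 2 to 6, 3 to 9, 9 to 11 and 4 to 8. The sum at 1 h was 0.084 relative to the median gene, 0.028 with ribosomal protein genes, Rn45s and polymerase III RNAs out of the total, -0.17 with cells thinned to 5000 UMIs and 0.081 from whole-number values. At 5 h it was 0.15 relative to the median gene and 0.036 from whole-number values. At 10 h it was -0.068 against all unheated groups pooled and -0.36 as a mean of single cells. At 15 h the mean of single cells gave -0.37, thinning -0.29 and leaving out cells rich in Rn45s -0.14. The causes of these shifts were not tested.

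In order of time from -1 to 15 h, a looser threshold, between no change and 1.5-fold, called 12, 10, 16, 22 and 13 members and a 2-fold threshold 0, 0, 0, 1 and 0. Thinning called 6, 7, 16 and 15 members at the first 4 times. A filter of 200 UMIs left 0 calls at -1 and 1 h, 2 at 10 h and 3 at 15 h, and no filter gave 6 at -1 h. The pooled unheated groups as denominator gave 1, 1 and 4 calls at 1, 5 and 10 h. At 1 h, 1 member was called relative to the median gene and 5 from whole-number values, and at 10 h 14 as means of single cells. Of the 25 calls after heating, 10 stayed past the threshold against the pooled unheated groups and 17 relative to the median gene.

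Signs of values past the threshold turned for Psmd9 at 1 h (0.020 against pooled groups), Psmd10 at 5 h (-0.98 to 1.10 with 1 cell left out) and 10 h (-0.049 as a mean of cells), Psmd13 at 10 h (0.40 thinned), Psmb10 at 15 h (-0.015 against pooled groups), Psmc4 at 15 h (0.20 thinned), Nfe2l1 at 5 h (1.13 thinned) and Nploc4 at -1 h (0.026 thinned). Psma1 at 5 h, not past the threshold, was -0.22 against pooled groups. With windows from 100 bases before the start, GAANNTTC and TTCNNGAA were in 0% of member promoters. Thinning lowered rho to 0.25 (core and cap) and 0.27 (rings) at 5 h. Cells thinned to 2000 UMIs gave a median Fano factor of 1.04 at 5 h. The planned comparison of protein sequences between standard and inducible subunits was not run, as no protein table was used here.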
